A study of Mus musculus with 4 samples.

Results

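The transcription factors that carry a cell of the dorsal forebrain from a dividing progenitor to an excitatory neuron were followed step by step in the postnatal mouse forebrain. The set was fixed by gene symbol and holds 10 of the 32285 genes of the count matrices: *Neurog2*, *Neurod4*, *Eomes*, *Neurod1*, *Neurod2*, *Neurod6*, *Tbr1*, *Bhlhe22*, *Emx1* and *Prox1*. All 10 symbols were found, each once. The data are single-cell RNA sequencing of cells sorted for tdTomato from the forebrain of C57BL/6 mice at postnatal day 5. Control mice were NestinCreERT2/tdTomato/Chd8+/+ and mutant mice were NestinCreERT2/tdTomato/Chd8+/F, so that both genotypes carried the inducible Cre and the reporter, and the mutants also carried 1 floxed allele of *Chd8*, which encodes a chromatin remodeler. Wild-type dams carrying pups of both genotypes received tamoxifen at the midfetal stage, which activates a Cre expressed in Nestin-positive progenitor cells and leaves the label in their progeny. Each genotype had a replicate 1 and a replicate 2 library, 4 in all, made with 10x Genomics 3′ chemistry. Cells of 3 mice were pooled in each, so a library was taken as the replicate and variation from mouse to mouse is not seen.

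Excitatory neurons of the cortex and hippocampus arise from radial glia of the dorsal telencephalon, often through an intermediate progenitor that divides before its daughters become neurons. NEUROG2 is the proneural basic helix-loop-helix factor that starts this program in progenitors, EOMES (also called TBR2) marks the intermediate progenitor, and the NEUROD factors, which are helix-loop-helix proteins of a related family, act as differentiation proceeds. TBR1 and BHLHE22 are factors of young projection neurons, EMX1 is a homeodomain factor of the dorsal telencephalon from progenitors onward, and PROX1 is a homeodomain factor required in granule cells of the dentate gyrus, where neurogenesis continues after birth. PROX1 is also known in interneurons from the caudal ganglionic eminence and in oligodendrocyte precursors.

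The 4 libraries held 6107 to 7279 barcodes and 46274374 to 79328841 UMIs (unique molecular identifiers, tags that mark each captured transcript), and 17623 cells passed the filters. Median depth was alike, at 11497 to 11837.5 UMIs per cell. The libraries of replicate 1 kept 5710 and 5659 cells (79.1% and 79.3% of barcodes) and those of replicate 2 kept 2973 and 3281 (48.7% and 45.1%), with a median mitochondrial share per cell of 2.18% and 2.60% against 5.64% and 4.86%. The file headers named Cell Ranger 7.0.0 for both libraries of replicate 1 and 5.0.1 for both of replicate 2. Levels are given as CPM, the UMIs of a gene scaled to a common total per class and library. *Xist*, the RNA that coats the inactive X, stood at 0.149 and 0.153 CPM in replicate 1 but at 1633 and 1749 CPM in replicate 2, and the study states that the mice were male. Replicate number therefore goes with software version and with *Xist*, while each genotype has a library of each kind, and values are mostly given per library. Between 2 and 15 cell barcodes were shared by any pair of libraries.

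Cells were clustered without the 10 factors, so that their levels did not shape the clusters, and clusters were named from lists of other marker genes, although the factors counted among the leading genes that a name was checked against. The excitatory clusters were divided again into classes that are laid out here in the order stem-like, precursor, neuron. This order was taken from known biology and not measured. There were 8 classes, with 1408 cells in all (7.99% of all cells), and 7 of them are described: *Gdf10* stem-like cells (121 cells), dividing stem-like cells (116), dividing precursor-like cells (153), non-dividing precursor-like cells (290), granule-like cells led by *Cntn2* (199), granule-like cells led by *Gal* (252) and excitatory neuron-like cells with *Tfap2d* (162). The class names were checked against the markers: 9 of 11 precursor markers were found in at least 10% of the cells of both precursor-like classes, but also of the dividing stem-like cells, which held 6 of 7 stem cell and 8 of 9 astrocyte markers besides and had *Neurog2* and *Eomes* among their leading genes. The granule-like classes held 4 of 9 granule cell markers each, as did the dividing stem-like cells and both precursor-like classes. The *Cntn2* class held no UMI of *C1ql2* or *Plk5*, markers of granule cells. The summed level of granule cell markers was 2765 CPM in the *Cntn2* class and 1963 CPM in the *Gal* class, against 2016 CPM in non-dividing precursor-like cells. Of the 11 precursor markers, the *Cntn2* class held 8 and the *Gal* class 7. The *Gdf10* class held 8 of 9 astrocyte markers and 6 of 7 stem cell markers. The neuron-like cells came almost entirely from replicate 1: the *Tfap2d* class had 91, 7, 59 and 5 cells in control replicates 1 and 2 and mutant replicates 1 and 2, in that order. Its levels are given for replicate 1 alone. A further 189 cells in 3 excitatory sub-clusters had too few markers or too few UMIs to be named and were left out.

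*Neurog2* (ENSMUSG00000027967, chromosome 3, 127633135 to 127635631, plus strand of GRCm38) had its highest mean level in dividing precursor-like cells. Dividing stem-like cells overlapped them, at 59.3 to 106 CPM by library, and the ratio of precursor-like to stem-like within libraries was 1.01 to 2.50. In the order control replicate 1, control replicate 2, mutant replicate 1, mutant replicate 2, the level of *Neurog2* was 94.0, 148, 103 and 107 CPM in dividing precursor-like cells. It was 70.7, 46.5, 34.2 and 45.1 CPM in non-dividing precursor-like cells, below every library of dividing precursor-like cells. In the granule-like cells with *Cntn2* it was 6.81, 16.7, 11.8 and 20.8 CPM, again with no overlap with the class before. The mean was thus 113 ± 24.1 CPM in dividing precursor-like cells (SD, n = 4), 49.1 ± 15.4 in non-dividing ones and 14.0 ± 6.05 in the *Cntn2* class. A UMI of *Neurog2* was found in 64.7%, 32.8% and 13.1% of the cells of these classes, and in 0 of 363 microglia-like cells and 0 of 166 endothelial-like cells, where 0 cells allows a share of cells with a UMI of up to 0.826% and 1.81%, which is no limit on cells expressing the gene. *Neurog2* was also found in 26 of 121 *Gdf10* stem-like cells, at 44.8, 35.6 and 27.9 CPM in the 3 libraries with at least 20 cells of the class. Among neuron-like cells it was at 50.7 and 76.9 CPM in the *Tfap2d* class (control and mutant replicate 1), where 1 cell held 25.6% of its UMIs.

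*Neurod4* (ENSMUSG00000048015, chromosome 10, 130268152 to 130280240, minus strand), which encodes a helix-loop-helix factor of short-lived expression in neuronal precursors, was found in fewer classes. Its level was 55.7, 127, 76.7 and 65.2 CPM in dividing precursor-like cells and 77.5, 94.5, 66.1 and 45.1 CPM in non-dividing ones. These ranges overlapped. In the *Cntn2* class it was 1.70, 10.5, 4.41 and 10.4 CPM, resting on 1 to 5 UMIs a library, and *Gdf10* stem-like cells held no UMI in 121 cells, which allows a share of cells with a UMI of up to 2.48%. Of all UMIs of *Neurod4* in the series, 83.4% lay in the 8 excitatory classes, which held 7.87% of all UMIs of the cells.

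*Eomes* (ENSMUSG00000032446, chromosome 9, 118478212 to 118486132, plus strand) was measured at 173, 200.03, 242 and 282 CPM in dividing stem-like cells and at 374, 616, 398 and 683 CPM in dividing precursor-like cells, with every library of the second class above every library of the first. Non-dividing precursor-like cells held 399, 587, 406 and 628 CPM, so that *Eomes* did not differ between dividing and non-dividing precursors beyond the spread of the libraries. It was 42.6, 85.8, 41.1 and 97.5 CPM in the *Cntn2* class and 23.0, 20.2, 14.2 and 35.7 CPM in the *Gal* class, each without overlap with the class before. The share of cells with a UMI was 91.5%, 86.9%, 41.2% and 18.7% over these 4 classes. In microglia-like cells it was 0.551%, and in endothelial-like cells 0.602%.

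*Eomes* was also found in a class named for neurons. In excitatory neuron-like cells with *Tfap2d* the libraries of replicate 1 held 221 CPM (control) and 280.0 CPM (mutant), and 68 of these 162 cells held a UMI (40 of 91, 1 of 7, 26 of 59 and 1 of 5 by library). Among those 68 cells, 29.4% also held *Neurog2*, 82.4% held *Tbr1* and 76.5% held *Neurod6*, against 4.26%, 64.9% and 52.1% of the 94 cells without *Eomes*. The cells with *Eomes* were deeper, with a median of 10461 against 6020 UMIs, and the part of depth in these shares was not tested. This class held more of the precursor markers (8 of 11) than of the neuron markers (6 of 11), although its summed level was 685 CPM for the former and 1231 CPM for the latter. The summed level of granule cell markers in this class was higher still, at 1434 CPM, with 3 of 9 of them found. When the factors were allowed to shape the clusters, the mean over replicate 1 in all neuron-like cells went from 152 to 78.0 CPM for *Eomes* and from 40.5 to 11.99 CPM for *Neurog2*, so that these levels depend on the clustering.

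**Figure D1:**
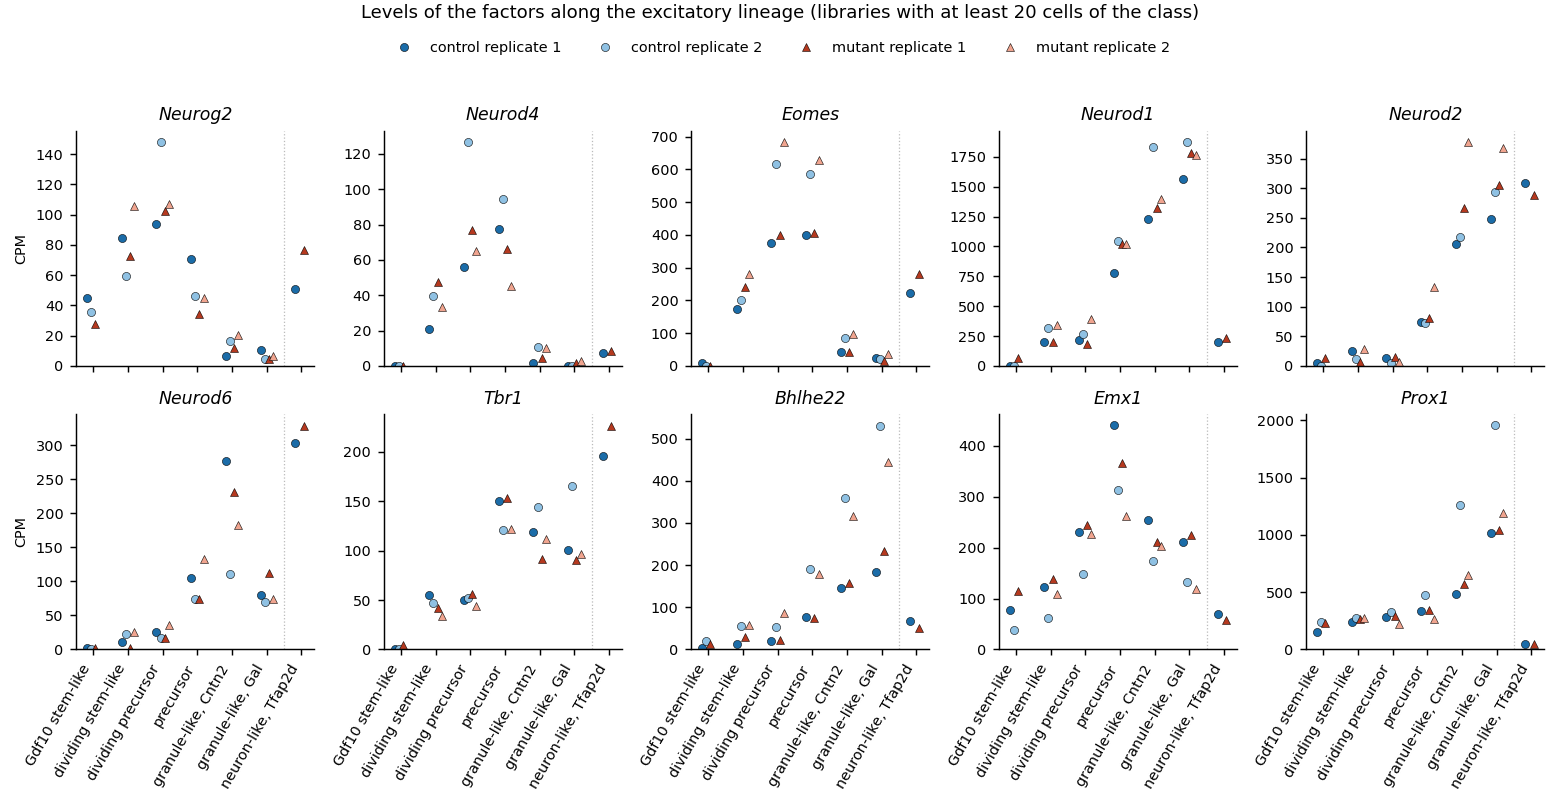
Level of each factor (CPM, linear axis from 0) in 7 excitatory classes, with 1 point per library for libraries with at least 20 cells of the class; circles are control and triangles mutant libraries, dark for replicate 1 and light for replicate 2, and the dotted line sets apart the neuron-like cells, which have points from replicate 1 alone. Neurog2, Neurod4 and Eomes are high in precursors and low in granule-like cells, while Neurod1, Bhlhe22 and Prox1 are highest in granule-like cells and Neurod2 is alike in granule-like and neuron-like cells.

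The NEUROD genes followed at different steps. *Neurod1* (ENSMUSG00000034701, chromosome 2, 79452521 to 79456751, minus strand), known as a driver of terminal neuronal differentiation that is needed for dentate granule cells, was at 220, 271, 182 and 393 CPM in dividing precursor-like cells. It was at 775, 1048, 1021 and 1021 CPM in non-dividing precursor-like cells, at 1227, 1836, 1322 and 1399 CPM in the *Cntn2* class and at 1569, 1874, 1784 and 1767 CPM in the *Gal* class. The first 2 of these 3 differences had no overlap between libraries, with ratios within libraries of 2.60 to 5.62 and 1.29 to 1.75, and the last did overlap. All 252 cells of the *Gal* class held a UMI of *Neurod1*, against 2.20% of microglia-like and 3.01% of endothelial-like cells. In neuron-like cells with *Tfap2d*, by contrast, *Neurod1* was at 203 and 237 CPM in the 2 libraries of replicate 1, close to the dividing precursor-like cells. The annotated exons of *Neurod1* share 201 bases with those of *Cerkl* on the same strand, and reads there could be assigned to either gene.

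*Neurod2* (ENSMUSG00000038255, chromosome 11, 98325415 to 98329648, minus strand), a factor of postmitotic excitatory neurons, showed the largest relative increase of the 10 factors between dividing and non-dividing precursor-like cells. It was at 13.1, 5.35, 14.7 and 6.31 CPM in dividing precursor-like cells, where it rested on 3 to 13 UMIs a library, and at 74.1, 72.8, 81.5 and 133 CPM in non-dividing ones. The ratio of means was 9.15, with 5.56 to 21.0 within the libraries. The *Cntn2* class held 206, 218, 266 and 378 CPM and the *Gal* class 248, 294, 306 and 368 CPM. These overlapped, as they did with the *Tfap2d* class of replicate 1, at 309 and 289 CPM.

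*Neurod6* (ENSMUSG00000037984, chromosome 6, 55677822 to 55681263, minus strand), a marker of pyramidal neurons, departed from *Neurod2* within the granule-like cells. It was at 25.1, 16.1, 16.9 and 35.7 CPM in dividing and 106, 74.3, 73.8 and 133 CPM in non-dividing precursor-like cells. In the *Cntn2* class it was at 277, 111, 232 and 183 CPM, while in the *Gal* class it was at 79.3, 69.5, 112 and 74.2 CPM. Within each library the *Gal* class stood at 0.286 to 0.626 of the *Cntn2* class, although the ranges touched because control replicate 2 was low in the latter. Among the classes described, the highest levels were in neuron-like cells with *Tfap2d*, at 303 CPM in control and 329 CPM in mutant replicate 1.

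Because *Neurod1*, *Neurod2* and *Neurod6* were higher together in non-dividing than in dividing precursor-like cells, the sequence just before their starts was examined for E-boxes, the CANNTG motif that helix-loop-helix factors bind. The stretches below are from RefSeq windows of GRCm38.p6 and lie on the minus strand. They are written 5′ to 3′ with each E-box in capitals, and are trimmed so that they end before the annotated start in both RefSeq and GENCODE. They cover chr2:79456752-79456886 for *Neurod1*, chr11:98329649-98329895 for *Neurod2* and chr6:55681264-55681513 for *Neurod6*.
Neurod1: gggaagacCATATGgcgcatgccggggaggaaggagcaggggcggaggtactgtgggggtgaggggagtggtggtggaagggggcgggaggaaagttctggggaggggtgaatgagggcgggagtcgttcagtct
Neurod2: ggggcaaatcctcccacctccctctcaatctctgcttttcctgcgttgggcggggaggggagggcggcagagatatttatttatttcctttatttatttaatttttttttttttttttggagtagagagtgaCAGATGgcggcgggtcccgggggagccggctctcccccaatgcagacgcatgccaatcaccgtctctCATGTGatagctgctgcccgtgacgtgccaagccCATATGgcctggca
Neurod6: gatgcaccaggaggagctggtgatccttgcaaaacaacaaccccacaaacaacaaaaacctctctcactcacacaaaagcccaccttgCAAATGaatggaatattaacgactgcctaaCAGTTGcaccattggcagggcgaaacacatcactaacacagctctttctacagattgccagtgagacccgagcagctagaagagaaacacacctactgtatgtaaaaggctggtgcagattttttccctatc

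RefSeq windows of the 250 bases before the RefSeq start were held for 9 of the 10 factors (11 windows), with none for *Bhlhe22*. An E-box, searched on both strands, was found in 6 of the 11 windows (*Emx1*, *Neurod1*, *Neurod2*, *Neurod6*, *Prox1* and *Tbr1*). The windows of *Emx1* and *Tbr1* lay wholly inside the gene as annotated in GENCODE, so their E-boxes are not before its start there. Among all 32851 windows, 66.2% held an E-box, so the motif itself does not set the factors apart. The form CATATG was in the windows of *Neurod1* and *Neurod2* and in 3.46% of all windows. The form CAGATG was in those of *Neurod2* and *Prox1* and in 14.4% of all windows. GGTGTGA, part of the motif of T-box factors such as EOMES and TBR1, was in 3.33% of all windows and in none of the 9. A match says only that the letters are there.

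*Tbr1* (ENSMUSG00000035033, chromosome 2, 61802930 to 61814114, plus strand), known in deep-layer and subplate neurons, was already found in precursors, at a higher level in non-dividing than in dividing ones. It stood at 50.3, 51.7, 56.4 and 44.1 CPM in dividing and at 151, 121, 153 and 122 CPM in non-dividing precursor-like cells, with a ratio of means of 2.70. The granule-like classes did not differ from the latter beyond their spread, at 91.1 to 144 CPM with *Cntn2* and 91.0 to 166 CPM with *Gal*. Its highest level was in neuron-like cells with *Tfap2d*, at 195 and 227 CPM in replicate 1, above every library of every other class described.

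*Bhlhe22* (ENSMUSG00000025128, chromosome 3, 18054174 to 18057517, plus strand), a helix-loop-helix factor of postmitotic projection neurons and a gene of a single exon, separated libraries by replicate number at every step. It was at 20.8 and 22.6 CPM in replicate 1 and 53.5 and 86.2 CPM in replicate 2 in dividing precursor-like cells, each pair giving control and then mutant. In non-dividing ones it was at 76.6 and 74.9 against 190.5 and 179 CPM, in the *Cntn2* class at 145 and 159 against 360.1 and 315 CPM, and in the *Gal* class at 184 and 234 against 531 and 444 CPM. Within each library the level was 2.08 to 3.69 times higher in non-dividing than in dividing precursor-like cells and 1.76 to 2.12 times higher again in the *Cntn2* class. The *Tfap2d* class held 68.0 and 51.3 CPM in replicate 1.

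*Emx1* (ENSMUSG00000033726, chromosome 6, 85187438 to 85204462, plus strand) peaked in the middle of the series of classes. Its levels were 123, 61.7, 138 and 108 CPM in dividing stem-like cells, 231, 148, 244 and 227 CPM in dividing precursor-like cells and 442, 314, 367 and 262 CPM in non-dividing ones. The *Cntn2* class held 255, 174, 212 and 203 CPM and the *Tfap2d* class of replicate 1 held 70.5 and 57.7 CPM. Every one of the first 3 of these steps was free of overlap between libraries.

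*Prox1* (ENSMUSG00000010175, chromosome 1, 190118035 to 190170714, minus strand) was present at every step before the granule-like cells and was higher in them. It was at 154, 239 and 234 CPM in *Gdf10* stem-like cells, where 78.5% of cells held a UMI, at 242 to 272 CPM in dividing stem-like cells, at 221 to 330 CPM in dividing precursor-like cells and at 265 to 474 CPM in non-dividing ones. The *Cntn2* class held 485, 1260.2, 567 and 648 CPM and the *Gal* class 1014, 1957, 1046 and 1193 CPM. Within each library *Prox1* was 1.45 to 2.66 times higher in the *Cntn2* class than in non-dividing precursor-like cells and 1.55 to 2.09 times higher again in the *Gal* class. The *Tfap2d* class of replicate 1 held 47.0 and 44.9 CPM, so that the granule-like classes had high *Prox1* and *Neurod1* and the *Tfap2d* class low *Prox1* and high *Neurod6*.

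The step-to-step differences can be set against those of all genes. Of the 10 factors, 3 (*Neurod4*, *Eomes* and *Emx1*) had all 4 libraries of dividing precursor-like cells above all 4 of dividing stem-like cells, against 4.69% of all genes with at least 5 CPM, and none was lower, against 5.47%. From dividing to non-dividing precursor-like cells, 5 were higher (*Neurod1*, *Neurod2*, *Neurod6*, *Tbr1* and *Emx1*), against 9.64% of genes, and *Neurog2* was lower, against 12.4%. From there to the *Cntn2* class, 3 were higher (*Neurod1*, *Neurod2* and *Prox1*), against 4.59%, and 4 were lower (*Neurog2*, *Neurod4*, *Eomes* and *Emx1*), against 7.15%. Between the 2 granule-like classes, *Eomes* alone of 9 factors measured was lower, against 2.43%, and none was higher, against 2.82%. These counts are descriptions with no test, since the classes were made from the same cells.

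Outside the excitatory classes the factors were scarce, with *Emx1* and *Prox1* as the exceptions. The 8 classes held 72.0% of the UMIs of *Neurog2* and 80.3% to 88.6% of those of *Neurod4*, *Eomes*, *Neurod1*, *Neurod2*, *Neurod6*, *Tbr1* and *Bhlhe22*, against 63.9% for *Emx1* and 52.3% for *Prox1*. Of the *Emx1* UMIs, 26.9% lay in astrocyte-like, ependymal-like and *Veph1* stem-like cells, which held 48.8% of all UMIs of the cells. *Emx1* was at 16.2 to 47.4 CPM in ependymal-like cells, at 9.09 to 30.4 CPM in *Veph1* stem-like cells and at 3.40 to 9.30 CPM in astrocyte-like cells, and 1.65% of microglia-like cells and 1.20% of endothelial-like cells held a UMI, at 2.25 and 1.99 CPM. In all 3 classes both libraries of replicate 1 were above both libraries of replicate 2.

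*Prox1* was spread more widely. Inhibitory neuron-like cells held 14.2% of its UMIs, the astrocyte-like, ependymal-like and *Veph1* group 14.8% and OPC-like cells (oligodendrocyte precursors) 6.83%. These groups held 14.0%, 48.8% and 17.8% of all UMIs of the cells, so only the first was near its share of all UMIs. Dividing cells and committed OPC-like cells are counted in these shares. In cells of all 4 libraries together, the inhibitory cluster led by *Galntl6* and *Lhx6* held 176 CPM and another led by *Dlx6os1* held 80.3 CPM. That led by *Epha6* and *Foxp2* held 10.5 CPM. Most cells of these clusters came from replicate 1. The *Galntl6* cluster had 101 and 78 cells in control and mutant replicate 1, and 18 and 7 in replicate 2. The other inhibitory clusters held 83.1 CPM (dividing cells), 20.7 CPM and 60.5 CPM, the last almost wholly from replicate 2. Non-dividing OPC-like cells were at 24.7 to 37.7 CPM and non-dividing astrocyte-like cells at 13.5 to 22.5 CPM. Microglia-like cells, taken as a type that should lack this gene, held 45.2 CPM (31.7 to 49.0 by library), with a UMI in 27.3% of cells at a median of 10717 UMIs, but endothelial-like cells held 9.54 CPM, with a UMI in 3.61% of cells at a median of 12471 UMIs. The levels in OPC-like and astrocyte-like cells thus overlapped or lay below those in microglia-like cells, but lay above the 9.54 CPM of endothelial-like cells. As these reference types differ, whether the levels in OPC-like and astrocyte-like cells are expression cannot be told here. The source of the UMIs in microglia-like cells was not tested. The dividing and non-dividing precursor-like cells and both granule-like classes lay above the microglia-like cells in every library. The *Tfap2d* class of replicate 1, at 47.0 CPM in control and 44.9 CPM in mutant, lay within the range of the microglia-like cells.

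**Figure D2:**
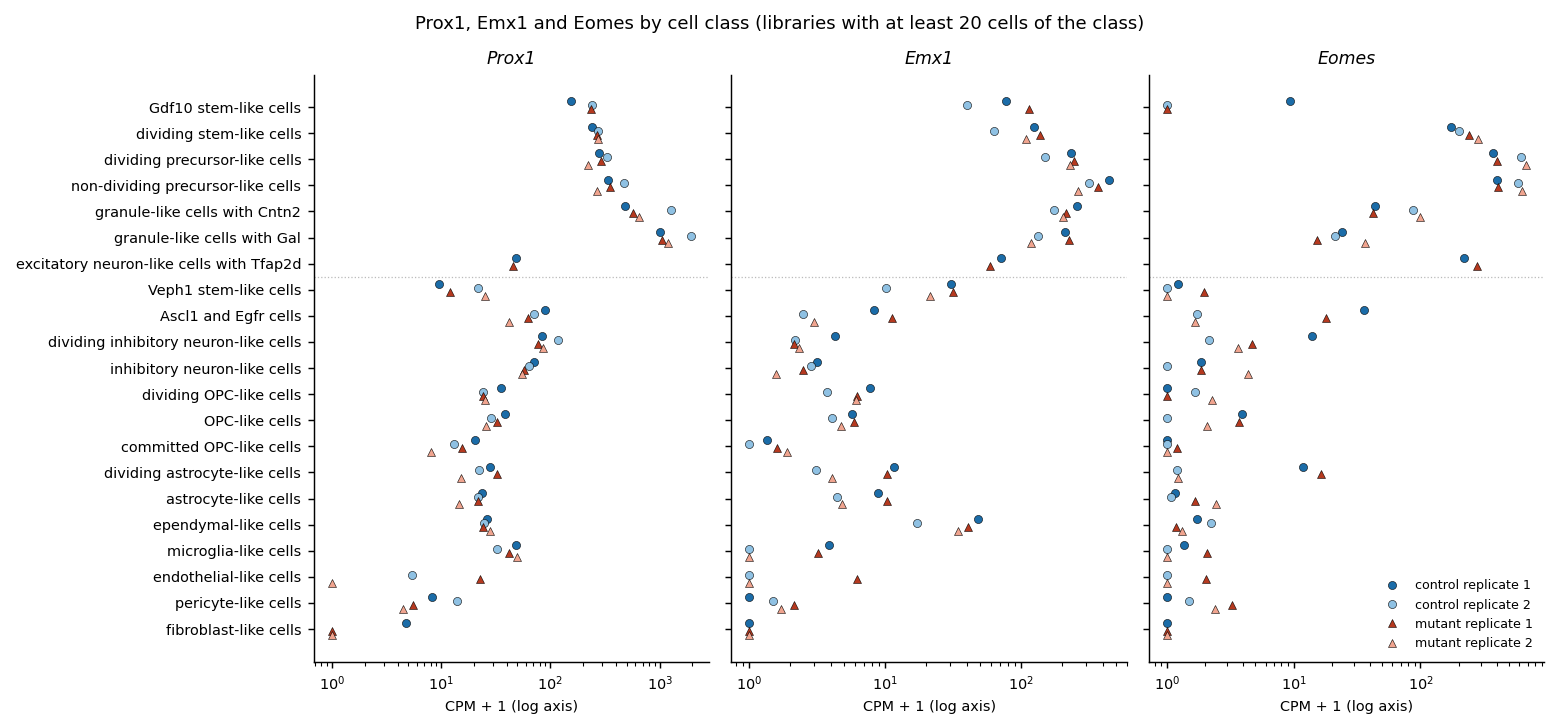
Prox1, Emx1 and Eomes by cell class, as CPM + 1 on a log axis, with 1 point per library for libraries with at least 20 cells of the class; circles are control and triangles mutant libraries, and the dotted line separates the excitatory classes, above, from the others. Eomes reaches at most 34.6 CPM below the line, while Prox1 is at 54.1 to 69.4 CPM in inhibitory neuron-like cells and Emx1 at 16.2 to 47.4 CPM in ependymal-like cells.

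Within single cells the early factors were found together. Among the 1287 cells of the lineage (all classes but the *Gdf10* cells), 95.4% of the 261 cells with a UMI of *Neurod4* also held *Eomes*, against 38.9% of cells without *Neurod4*. Of the 323 cells with *Neurog2*, 80.2% held *Eomes*, against 40.4% of those without, whereas 39.97% of the 648 cells with *Eomes* held *Neurog2*, against 10.0% of those without. *Neurod2* was the opposite. It was in 20.7% of cells with *Neurod4*, against 64.7% of those without, and in 26.9% of cells with *Neurog2*, against 65.5% of those without. Within the *Tfap2d* class, however, *Neurod2* was in 77.9% of cells with *Eomes*, against 70.2% of those without. *Neurod1* and *Prox1* went together, with *Prox1* in 83.6% of cells with *Neurod1* and in 42.9% of those without.

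Depth enters these shares, since a deeper cell shows more genes, and cells with *Neurod4* had a median of 15507 UMIs against 11031 in cells with *Neurod2*. When each cell was thinned to 2000 UMIs, 61.8% of cells with *Neurod4* held *Eomes*, against 24.8% of those without, and 38.8% of cells with *Neurog2* did, against 26.1%. *Prox1* was then in 59.3% of cells with *Neurod1*, against 24.4% of those without, and *Neurod2* in 3.95% of cells with *Neurod4*, against 26.7%. The thinned shares with *Neurod4* rest on 76 cells. With all UMIs of each cell, and so without thinning, cells with the early factors were more often in division. *Mki67* or *Top2a*, genes of dividing cells, was found in 56.3% of cells with *Neurog2*, 57.9% with *Neurod4* and 40.9% with *Eomes*, against 24.0% with *Neurod1*, 13.4% with *Neurod2* and 29.2% of all cells of the lineage. Cells with *Neurog2* had a median of 15072 UMIs, and the part of depth in these shares was not tested. Cells are not replicates, and no test was made.

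**Figure D3:**
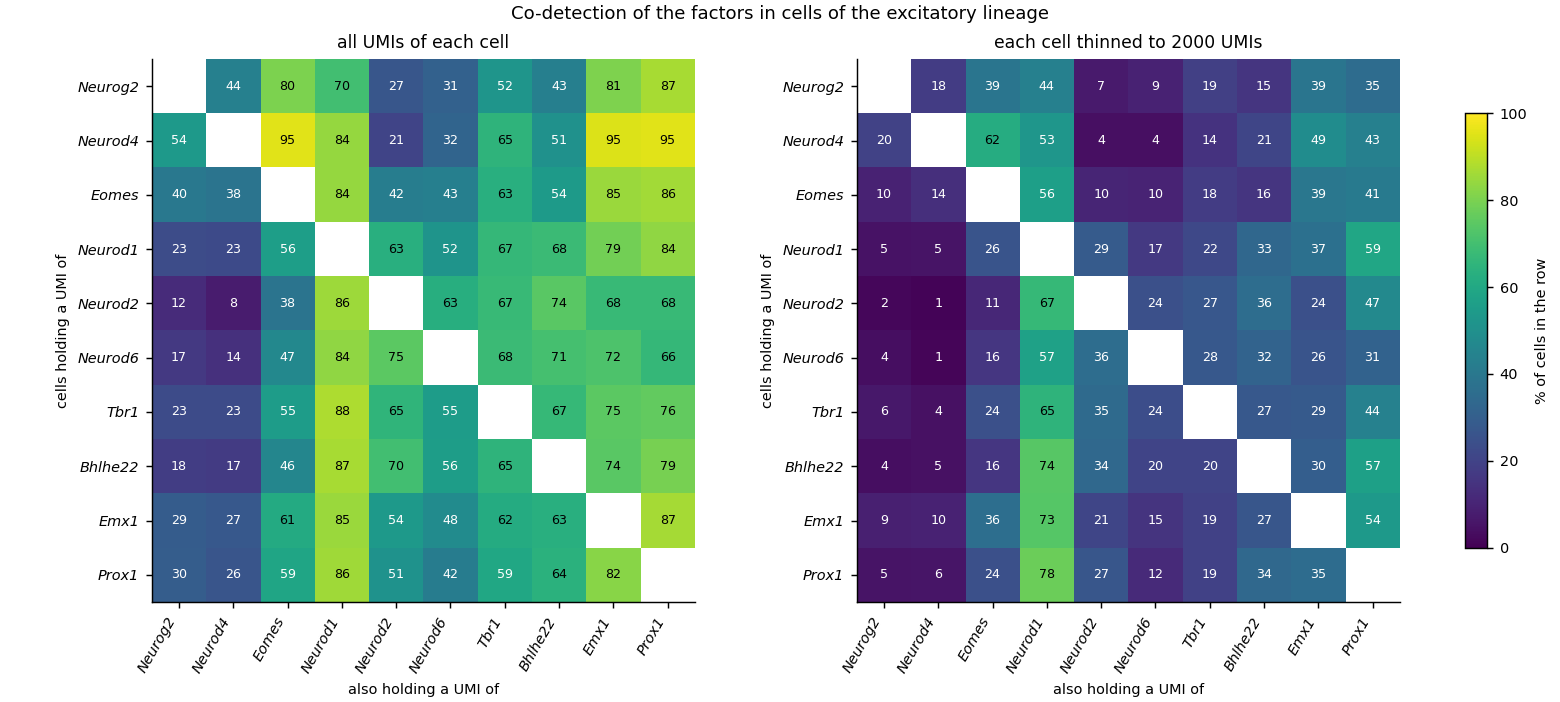
Percent of lineage cells holding a UMI of the factor named in the row that also hold a UMI of the factor named in the column, with all UMIs of each cell (left) and with every cell thinned to 2000 UMIs (right); the colour scale runs from 0 to 100%. The Neurod4 row is high under Eomes, Emx1 and Prox1 and low under Neurod2, and its value under Eomes is 95.4% with all UMIs and 61.8% after thinning.

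The genes outside the set whose levels ran most closely with each factor were sought over 81 profiles of a class in a library. These came from 22 classes, and 12435 genes with a mean of at least 5 CPM were compared. Pearson's r of the log2 levels is a description, as libraries share classes and depth. For *Neurog2* the closest were *Tesc* (r = 0.83), *Nrn1* and *Tac2*, and for *Neurod4* and *Eomes* the closest was *Tac2* (0.85 and 0.89). *Neurod1* went with *Sstr2* (0.91), *Rbfox3* and *Nhlh1*, *Neurod2* with *Sema3c* (0.90) and *Slc17a6*, the vesicular glutamate transporter, and *Neurod6*, *Tbr1* and *Bhlhe22* had *Slc17a6* as their closest gene (0.90, 0.96 and 0.87). *Emx1* went with *Zbtb18* (0.89) and *Prox1* with *Prox1os* (0.89), a gene on the opposite strand whose exons overlap those of *Prox1* by 133 bases. Among the factors themselves, *Neurod2* and *Neurod6* were the closest pair (0.95), and *Neurog2* was nearest to *Eomes* (0.89). Of the genes from outside the set, *Slc17a6*, *Nrn1*, *Zbtb18*, *Sstr2*, *Nhlh1*, *Tac2* and *Sema3c* were also among the markers that named the classes.

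Mutant and control were compared after counts were summed over the cells of a class in each library. *Chd8* was at 61.7, 89.8, 68.7 and 94.9 CPM over all cells, which is no check of the deletion, since the counts per gene do not show which exons the reads came from. In excitatory precursors (443 cells, dividing and non-dividing), no gene of 10460 passed the test (0.0%; edgeR's quasi-likelihood test, Benjamini-Hochberg adjusted p under 0.05), with 6 genes at an unadjusted p under 0.05 and none called by DESeq2, which had 7 at that level. In granule-like cells (451 cells) it was 0 of 9806 genes (0.0%), with 12 genes at an unadjusted p under 0.05 and none by DESeq2, which had 4. In the whole lineage it was 0 of 12623 (0.0%), and in all cells, inhibitory neuron-like cells, OPC-like cells and astrocyte-like cells it was also 0 (0.0%). No factor was therefore called in any class in this fit, and every adjusted p of the 10 factors rounded to 1.0. The fit of genotype alone counts the difference between replicate numbers as error. With a term for replicate number, 483 of 10460 genes in precursors had an unadjusted p under 0.05 in the same edgeR test. In granule-like cells it was 563 of 9806. Both lie near the share of genes that this threshold passes when no gene differs. The 6 and 12 genes of the fit of genotype alone lay far below that share. Such counts do not tell whether single genes differ, and with the term for replicate number 8 and 25 genes passed the adjusted threshold. The neuron-like cells were not tested, because replicate 2 had fewer than 20 of them per library.

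The levels behind this result show how far the libraries of one genotype differed. *Neurod2* in precursors was at 47.4 and 41.5 CPM in control and 48.5 and 83.7 CPM in mutant libraries, replicates 1 and 2 in that order. The mutant libraries were above both controls by little in replicate 1 and by much in replicate 2, and the fitted log2 change was 0.58 ± 0.36 (SE). In granule-like cells *Neurod2* was at 232 and 254 CPM in control and 286 and 372 CPM in mutant libraries, with a log2 change of 0.43 ± 0.26. *Neurog2* in precursors was at 80.9 and 93.7 CPM in control and 68.0 and 69.1 CPM in mutant libraries, with a log2 change of -0.34 ± 0.25, which turned to 0.14 when the factors were allowed to shape the clusters. *Tbr1* in granule-like cells was at 107 and 155 against 91.0 and 103 CPM, with a log2 change of -0.44 ± 0.30.

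These were the 4 cases, across both classes, in which the libraries of the genotypes did not overlap. In precursors that made 2 of 10 factors (*Neurod2* higher and *Neurog2* lower in mutant), against 17.1% of all genes, and in granule-like cells 2 of 9 (*Neurod2* higher and *Tbr1* lower), against 17.3%, since *Neurod4* was too sparse to test there. In the whole lineage it was *Tbr1* alone, against 13.5%, in all cells *Prox1* and *Tbr1* were lower, against 11.0%, and in OPC-like cells there was none of 3 factors tested, against 12.9%. In inhibitory neuron-like cells *Neurod1* (1 to 56 UMIs a library) was higher and *Prox1* lower, of 3 tested, against 14.1%, and in astrocyte-like cells *Tbr1* was higher, of 7 tested, against 11.4%. In the excitatory classes the share of factors lay near that of all genes.

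In granule-like cells, a single library carried the difference in *Prox1*. There *Prox1* was at 813 and 1597 CPM in control and 810.4 and 976 CPM in mutant libraries, so that the mutant was equal to control in replicate 1 and lower in replicate 2, with a log2 change of -0.44 ± 0.39. Without control replicate 2 the change was 0.13. *Neurod4* in precursors was at 68.0 and 109 CPM against 71.4 and 52.8 CPM, with a log2 change of -0.50 ± 0.36, and *Neurod6* there was at 70.4 and 47.3 CPM against 45.7 and 95.1 CPM, with opposite directions in the 2 replicates. For *Eomes*, at 388 and 600.2 CPM against 402 and 650 CPM, and *Neurod1*, at 532 and 687 against 607 and 778 CPM, the replicates differed by more than the genotypes.

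A term for replicate number in the model left 8 genes called in precursors (0.0765%) and 25 in granule-like cells (0.255%), and none of them was a factor. It was 27 in the lineage (0.214%), 31 in inhibitory neuron-like cells (0.239%), 14 in OPC-like cells (0.107%), 3 in astrocyte-like cells (0.0201%) and 0 over all cells (0.0%), again without a factor. The lowest adjusted p of a factor in granule-like cells was then 0.53 for *Neurod2* (log2 change 0.42 ± 0.16) and 0.54 for *Prox1* (-0.36 ± 0.14), by edgeR's quasi-likelihood test with Benjamini-Hochberg adjustment. Among the genes called were *Nrxn3*, an adhesion gene, and the histone gene *Hist1h1e*, named after their values were seen. The difference between precursors and granule-like cells was also compared between genotypes, a comparison chosen after the data had been seen in place of one with the neuron-like cells. 1 of 9945 genes was called (0.0101%; *Nrxn3*), and no factor, the lowest unadjusted p among them being 0.059 for *Neurod1*.

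**Figure D4:**
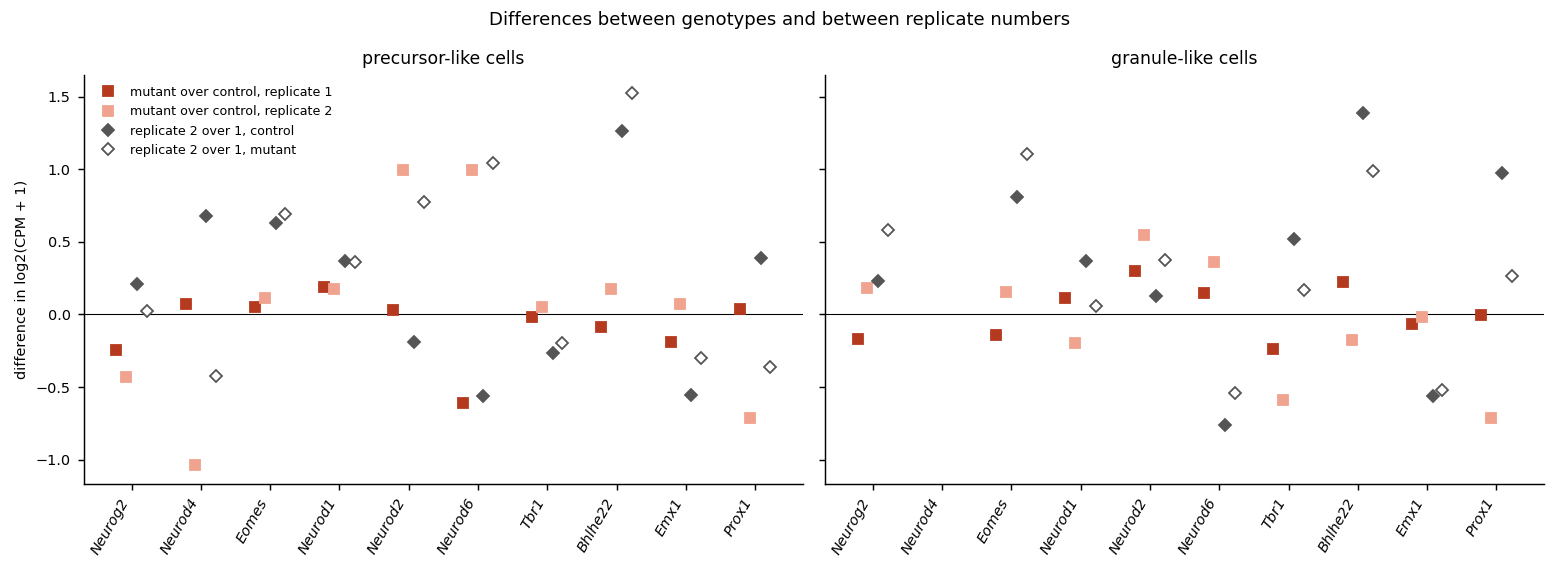
Differences in log2(CPM + 1) of each factor in precursor-like cells (left) and granule-like cells (right); squares are mutant over control within replicate 1 (dark) and replicate 2 (light), and diamonds are replicate 2 over replicate 1 within control (filled) and mutant (open), with Neurod4 left out on the right, where it was not tested. The diamonds of Bhlhe22 lie at 0.99 to 1.53, while its squares lie on either side of 0 in both panels, from -0.17 to 0.22.

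Differences between the libraries of replicate 2 and replicate 1 were larger than those between genotypes. In the fit with both terms, 31.4% of genes in precursors and 33.9% in granule-like cells differed between replicate numbers at an adjusted p under 0.05 (edgeR's quasi-likelihood test, Benjamini-Hochberg). Of the factors, 3 of 10 did in precursors: *Bhlhe22* (1.44 ± 0.19 on the log2 scale, adjusted p = 1.39e-08), *Eomes* (0.69 ± 0.15) and *Neurod1* (0.39 ± 0.15) were higher in replicate 2. In granule-like cells 5 of 9 did, *Bhlhe22* (1.17 ± 0.16), *Eomes* (0.96 ± 0.25) and *Prox1* (0.60 ± 0.14) higher and *Emx1* (-0.57 ± 0.17) and *Neurod6* (-0.67 ± 0.19) lower. In the lineage as a whole 5 of 10 factors differed (39.4% of genes), over all cells 5 of 10 (48.5%), in inhibitory neuron-like cells 0 of 3 (42.6%), in OPC-like cells *Eomes* and *Prox1*, both lower in replicate 2, of 3 (38.4%), and in astrocyte-like cells *Neurod6* and *Emx1*, both lower, of 7 (45.6%). Gene structure moved with this difference. In granule-like cells, genes of a single exon block had a median log2 difference of 0.38, against -0.31 for genes with over 20000 intronic bases, and *Bhlhe22* has a single exon. Other factors went the other way: *Prox1*, with 44290 intronic bases, was higher in replicate 2, and *Neurod6*, with 1292, was lower. Software version, *Xist* and any other property of the replicates cannot be told apart.

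Other genes of the pathway were read from lists. Of 16 intermediate progenitor genes tested in precursors, 13 had a positive and 3 a negative log2 change, with a median of 0.10 against 0.00 over all genes, and none was called. Of 13 dorsal progenitor genes, 5 were positive and 8 negative (median -0.04). Excitatory neuron genes split as 10 positive and 12 negative of 22 (median -0.02), and dentate granule cell genes as 4 and 4 of 8 (median 0.01). Cell division genes split as 3 and 5 of 8 (median -0.02), and 8 inhibitory lineage genes as 7 and 1 (median 0.53). The replicates did not share a direction for the summed level of 10 inhibitory neuron markers, all on that list. In dividing precursor-like cells it was 167 and 83.9 CPM in control and 323 and 56.8 CPM in mutant replicates 1 and 2. In non-dividing ones it was 54.5 and 26.3 CPM in control and 51.8 and 34.5 CPM in mutant replicates 1 and 2. In granule-like cells the medians were 0.12 for intermediate progenitor genes (15 tested), 0.11 for dorsal progenitor genes (11), -0.07 for excitatory neuron genes (20) and -0.03 for dentate granule cell genes (7). In the lineage as a whole, whose makeup differed between libraries, excitatory neuron genes split as 6 positive and 20 negative of 26 (median -0.19) and intermediate progenitor genes as 14 and 2 of 16 (median 0.16). Among the genes of each list with most counts, log2 changes there are given with their SE. *Lhx2* had 0.26 ± 0.21, *Tcf4* 0.22 ± 0.20, *Nfib* 0.26 ± 0.17 and *Zbtb20* 0.15 ± 0.15. *Rbfox1* had -0.38 ± 1.97, and its level differed far more between replicate numbers than between genotypes. *Mki67* and *Top2a* had -0.62 ± 0.88 and -0.50 ± 0.47. None of these genes was called, and most of the SEs were as large as the values or nearly so. No list had a gene called, with or without the term for replicate number.

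A level over the lineage also depends on which classes it holds. The lineage made up 8.37%, 7.47%, 6.15% and 7.28% of cells in the 4 libraries, a difference of -1.20 percentage points in mutant (exact two-sided permutation test, p = 0.333, the smallest that 2 libraries against 2 allow), and of -0.021 points with a mitochondrial limit of 5%. Precursors were 28.2%, 42.3%, 33.9% and 40.2% of the lineage, a difference of 1.75 points (exact permutation p = 1.0), granule-like cells were 27.0%, 42.8%, 33.3% and 46.4% and neuron-like cells 37.4%, 4.05%, 23.3% and 3.35%. Makeup followed replicate number more than genotype, which is why values are given within classes. A level summed over the lineage cannot tell fewer cells of a class from less RNA per cell.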

How the data were processed

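Single-cell counts came from 4 libraries, grouped by their labels. The authors made with Cell Ranger (mm10; the labels' notes name version 3.0, the file headers 7.0.0 or 5.0.1) a matrix of UMI counts per gene and barcode for each library, and these raw counts were deposited. The filters of the study were applied (2000 to 40000 UMIs, a minimum of 1000 genes, and mitochondrial counts up to 10%). Cells were clustered with scanpy 1.11.5 on 2000 variable genes without the 10 factors, scaled within each library (30 components, 15 neighbours, Leiden resolution 1, and 0.5 within excitatory clusters), in place of the scVI model of the study. Doublets marked by Scrublet (0.202% to 2.79% of cells) were not removed, since its threshold marked under 0.5% in control replicate 2. For classes with 20 or more cells in each library, the UMIs of each library were summed. The sums were tested in edgeR 4.0.16 (R 4.3.3) with filterByExpr, TMM and a quasi-likelihood fit of genotype alone, and p-values were adjusted by Benjamini-Hochberg over all genes tested. The scripts were tested on simulated data. Positions came from GENCODE vM21. Neuron-like cells fell short of this minimum, so the planned test of that class was not run and granule-like cells took its place in the comparison of steps. Alternatives were DESeq2 1.42.0, no scaling, a replicate block, genes of low count kept, each library left out, a mitochondrial limit of 5%, doublets removed and clusters made with the factors. Same-numbered libraries share a software version per the file headers and deviated together from their group means (r = 0.81 to 0.90 over genes), so that replicate numbers pair the libraries. Upper limits given where no cell held a UMI cover counting error only, while SDs and SEs also take in the spread between libraries. Nothing says that libraries came from independent litters, so p-values measure the spread between these libraries. The factors and gene lists were chosen with earlier results of these data known. Named genes are the 10 factors, *Chd8*, *Xist*, the closest 3 genes to each factor from outside the set and the 3 genes with most counts in each list, with exceptions said to be chosen later. Dorsal progenitor, intermediate progenitor, excitatory neuron, dentate granule cell, cell division and inhibitory lineage genes formed the lists. An excitatory class is not reported here.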

Additional observations from a re-analysis of the deposited data

Results flagged for a closer look

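The log2 change of *Tbr1* between mutant and control was 0.632 in astrocyte-like cells and -0.444 in granule-like cells, a difference of 1.08. In each of these classes both mutant libraries lay on the same side of both control libraries, higher in astrocyte-like cells (0.531 and 0.828 CPM in control, 0.972 and 1.14 CPM in mutant libraries) and lower in granule-like cells, and the difference between the classes was not tested. The astrocyte-like values rest on 10 to 16 UMIs per library. They are near the background: microglia-like cells held 1.12 CPM of *Tbr1*, from 5 UMIs.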

How the results depend on the processing

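With a replicate block in place of no term for replicate number, the count of genes called between genotypes went from 0 to 27 in the lineage, 8 in precursors, 25 in granule-like cells, 31 in inhibitory neuron-like cells, 14 in OPC-like cells and 3 in astrocyte-like cells, and stayed at 0 over all cells, with no factor called. The block also turned the log2 change of *Neurog2* in granule-like cells to -0.00399 and that of *Bhlhe22* there to 0.00775, and changed no other direction. Without a filter on low counts, 4 genes were called in precursors. For the difference between steps, 1 gene was called in the main fit, 3 without scaling and 6 without a filter, and 1 to 10 with a library left out, the 10 without control replicate 2. With clusters made from the factors as well, the log2 changes in precursors became 0.138 for *Neurog2*, -0.0167 for *Tbr1* and -0.0351 for *Bhlhe22*, and that of *Neurog2* in granule-like cells -0.654. With each library left out, log2 changes that turned sign ranged in precursors from -0.311 to 0.467 for *Eomes*, -0.0187 to 0.409 for *Neurod1*, -0.373 to 0.695 for *Neurod6*, -0.0868 to 0.147 for *Tbr1*, -0.877 to 0.906 for *Bhlhe22* and -0.306 to 0.221 for *Emx1*. In granule-like cells they ranged from -0.288 to 0.278 for *Neurog2*, -0.588 to 0.515 for *Eomes*, -0.227 to 0.143 for *Neurod1*, -0.117 to 0.669 for *Neurod6*, -0.612 to 0.794 for *Bhlhe22*, -0.376 to 0.271 for *Emx1* and -0.845 to 0.134 for *Prox1*. *Prox1* in OPC-like cells ranged from -0.492 to 0.0508 and *Emx1* in astrocyte-like cells from -0.619 to 0.959. The difference in share within the lineage ranged from -5.3 to 8.8 percentage points for precursors, -2.9 to 12.9 for granule-like cells and -24.1 to 9.26 for neuron-like cells. The cause of these shifts was not tested. *Neurod2* in both classes, *Neurod4*, *Neurog2* and *Prox1* in precursors and *Tbr1* in granule-like cells kept their sign with each library left out. Neuron-like cells were not tested in any setting, and the low counts of *Neurog2* and *Neurod4* in granule-like cells limit what could be seen there.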
